A study of Mus musculus with 6 samples.

Results

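A set of 9 genes of the naive and stem-like T cell state was followed in mouse Th17 cells of control and RTF1-deficient genotype. They are 9 of the 31017 genes in the count table, taken by symbol: the transcription factor genes Tcf7, Lef1, Bach2, Foxo1, Klf2 and Satb1, the homing receptor genes Ccr7 and S1pr1, and the survival receptor gene Il7r. RNA was sequenced from in-vitro-differentiated Th17 cells in 6 libraries, 3 labelled control with the genotype WT and 3 labelled KO, here called RTF1-deficient after the study's design. The labels name no allele, Cre driver, culture time or age of the animals, and do not say whether replicates were separate cultures or animals, so p-values measure the spread between these libraries. Total counts ran from 16489813 to 51271226 per library, and the libraries numbered 3 in both groups were the only ones with more than a few Y-linked counts.

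A T cell that has not met its antigen keeps itself alive and recirculating through a small set of proteins. TCF1 (the product of Tcf7), LEF1, BACH2, FOXO1 and SATB1 hold back effector genes and keep chromatin in the resting state. FOXO1 drives Il7r and, with KLF2, the genes of lymph node traffic: CCR7 brings the cell into the node and S1PR1 lets it out. Activation through the T cell receptor and the kinase AKT removes FOXO1 from the nucleus and lowers KLF2, and effector cells lose much of this set, while long-lived memory and stem-like cells, some Th17 cells among them, keep part of it.

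The 9 genes did not move in one direction. Lower in KO were 5 (Satb1, Il7r, Lef1, Bach2 and Ccr7), higher were 2 (Klf2 and S1pr1), and 2 (Tcf7 and Foxo1) did not pass the test. The test was edgeR's quasi-likelihood test, adjusted over the 14268 genes with enough counts, and a gene was called when its adjusted p was under 0.05. All 9 genes were tested. Calls were common in this comparison: 46.1% of all tested genes were called, 23.2% higher and 22.9% lower, and the 7 of 9 is to be read against that share. Counts given below for further lists are to be read against the same shares. The median log2 change of the 9 genes was −0.49, against 0.013 over all tested genes. In each of the 7 called genes all KO libraries lay on the same side of all control libraries, 2 above and 5 below. Over all tested genes this held for 57.9%, 29.9% above and 28.0% below. Levels are given as CPM, counts relative to library size after scaling by TMM factors, and are listed in the order of replicates 1, 2 and 3.

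**Figure D1:**
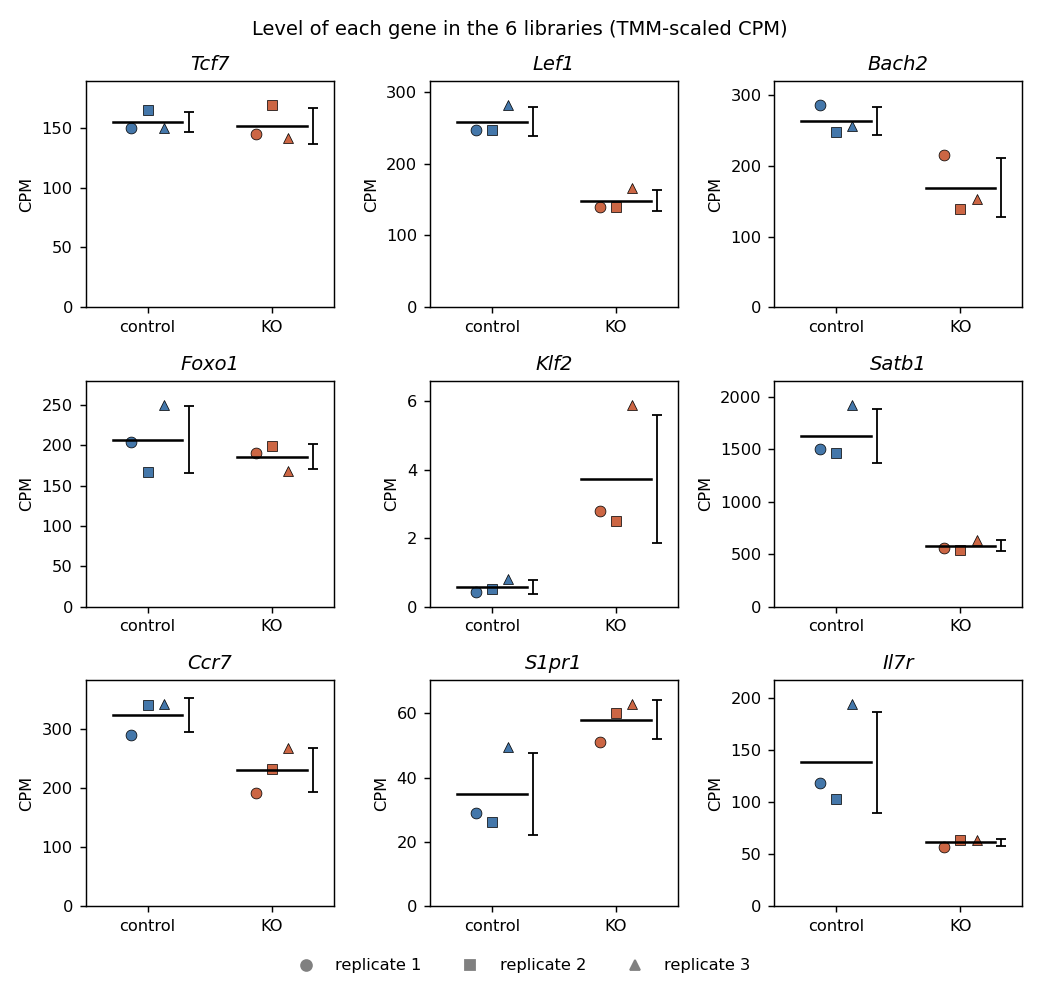
CPM (scaled by TMM factors, each vertical axis from 0) of the 9 genes in control (blue) and KO (orange) libraries, with the replicate number as the symbol, the group mean as a horizontal line and the SD (n = 3) as a bar. Satb1, Lef1, Bach2, Ccr7 and Il7r lie lower in every KO library, Klf2 and S1pr1 lie higher, and the groups of Tcf7 and Foxo1 overlap.

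Rtf1 itself held 88.3 to 94.0 CPM in control and 26.2 to 45.3 CPM in KO libraries (log2 change −1.42, adjusted p = 0.000755), so its transcript was reduced but still counted in every KO library. Transcripts of the lineage were checked against marker lists: the 8 T cell markers summed to 2324 to 2774 CPM in control and 1896 to 2087 CPM in KO. They did not move together: 2 were called higher (Cd3e at 0.71 and Cd3g at 0.72 on the log2 scale) and 5 lower. Markers of other cells summed to far less. The 6 B cell markers summed to at most 18.1 CPM in any library, mainly through Ebf1, with Ms4a1 at or near 0. The 9 myeloid and dendritic cell markers summed to 4.09 to 8.24 CPM in control and 25.4 to 38.6 CPM in KO, mainly through Cd68 and Xcr1, while Itgam and Adgre1 were at or near 0 in all libraries. The 6 CD8 and NK cell markers summed to 10.8 to 15.1 and 15.1 to 16.2 CPM, the 4 erythroid markers to 1.18 to 2.92 and 0.935 to 2.03 CPM, and the 5 stromal and endothelial markers to 28.7 to 41.6 and 15.8 to 18.7 CPM in control and KO. Pecam1 made up most of the last sum, with 27.9 to 40.3 CPM in control and 15.3 to 18.5 CPM in KO, while Col3a1 and Cdh5 were at or near 0. The 8 Th17 markers summed to 2274 to 2875 CPM in control and 748 to 1494 CPM in KO. The part of these lists in the results was not tested. In bulk RNA, fewer cells with a transcript and less transcript per cell cannot be told apart.

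Tcf7 and Lef1 encode related HMG-box proteins that bind the same DNA motif, and Lef1 was called while Tcf7 was not. Tcf7 held 150, 165 and 150 CPM in control and 145, 169 and 141 CPM in KO libraries. The groups overlap, with the replicate numbered 2 the highest in each. The log2 change was −0.03 (SE 0.115, 95% interval −0.29 to 0.23, edgeR adjusted p = 0.843), so a change of the size seen for Lef1 lies outside the interval. The sign is not determined: it was 0.06 under scaling by library size alone, 0.002 without control replicate 2 and 0.02 without KO replicate 3.

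Lef1 held 247, 246 and 281 CPM in control and 139, 140 and 166 CPM in KO libraries. The highest KO library stayed well below the lowest control library, and replicate 3 was the highest of each group. The mean fell from 258 ± 19.9 to 148 ± 15.04 CPM (SD, n = 3), which is −0.80 on the log2 scale (SE 0.122; adjusted p = 0.00129). It was called in all 15 alternative settings, from −0.90 to −0.71. The antisense gene Gm43352 overlaps 13.7% of Lef1's exonic bases, and counts in it were few in both groups, 2.15 and 3.09 CPM on average.

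The ratio of the 2 genes within a library needs no scaling. Tcf7 counts were 0.608, 0.671 and 0.533 times the Lef1 counts in control and 1.04, 1.21 and 0.852 times in KO. On the log2 scale the ratio rose by 0.77, from −0.73 ± 0.166 to 0.03 ± 0.252 (SD, n = 3). In a two-sided exact permutation test p was 0.1, which 3 libraries against 3 cannot go below. No control library reached the ratio of any KO library.

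The genes around these factors moved in both directions, as did tested genes at large (23.2% called higher and 22.9% lower). Of 13 tested genes that encode partners of TCF and LEF proteins or read out Wnt signalling, 3 were higher and 4 lower, with a median log2 change of 0.16. The median was 0.01 without control replicate 1, 0.06 without control replicate 2, 0.10 without control replicate 3 and 0.24 under scaling by library size alone. Lower calls numbered 1 without KO replicate 2 and 2 without KO replicate 3. Ctnnb1, which encodes β-catenin, the coactivator of both factors, rose from 169, 204 and 168 CPM to 266, 313 and 275 CPM, by 0.66 on the log2 scale (SE 0.128; adjusted p = 0.00366). Bcl9l, an adaptor that joins β-catenin to the transcription machinery, rose (1.05, adjusted p = 0.000718), as did Tle4, a Groucho corepressor (0.90, adjusted p = 0.00345). Axin2, a standard target and feedback inhibitor of the pathway, fell from 8.70 to 9.36 CPM in control to 3.68 to 4.78 CPM in KO (−1.07, adjusted p = 0.0033). Some of the stretches of Ctnnb1, 12.3%, also occur in other transcripts, mainly those of Ulk4.

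Satb1, which encodes a protein that organises chromatin loops in T cells and is abundant in thymocytes, showed the largest fall of the 9 genes. It held 1499, 1465 and 1924 CPM in control and 559, 543 and 641 CPM in KO libraries. Replicate 3 was the highest in each group, and the groups stood far apart. The mean fell from 1629 ± 255 to 581 ± 52.2 CPM (SD, n = 3), so 35.7% of the control level remained (log2 change −1.49, SE 0.153, adjusted p = 0.000259). It was called in all 15 alternatives, between −1.61 and −1.40. At this level it still lay at the 88.6th percentile of tested genes in KO on the scale of CPM per kilobase of exon.

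Bach2, a repressor that competes with AP-1 factors and restrains effector differentiation, was lower in KO with more scatter. It held 286, 248 and 256 CPM in control and 216, 138 and 154 CPM in KO libraries. KO replicate 1 stood nearest to the controls, and replicate 1 was the highest in both groups. The mean fell from 263 ± 20.1 to 169 ± 41.2 CPM, or −0.64 on the log2 scale (SE 0.172; adjusted p = 0.0153). The call was lost without KO replicate 2 (−0.51, adjusted p = 0.0685) and without KO replicate 3 (−0.57, adjusted p = 0.0566). The antisense gene Bach2os overlaps 5.4% of the exonic bases and held 6.12 CPM on average in control and 3.51 in KO.

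Prdm1, which encodes BLIMP1 and is a known target of BACH2 repression, was among the genes that rose most near this group. It held 0.365, 0.619 and 1.05 CPM in control and 7.21, 6.44 and 15.3 CPM in KO libraries. Every KO library lay above every control library (log2 change 3.75, SE 0.471, adjusted p = 0.000585). Bach1, the close relative of Bach2, rose from 8.61 ± 0.722 to 21.8 ± 3.43 CPM, by 1.34 on the log2 scale (SE 0.169; adjusted p = 0.000595). Mafk, a small MAF protein that pairs with both BACH factors on DNA, also rose, from 25.5 ± 1.31 to 58.8 ± 2.57 CPM (adjusted p = 0.0002). Of the 8 tested genes of this list 4 were higher and 1, Hmox1, was lower; Hmox1 was not called in 5 of 6 fits with a library omitted. Without control replicate 3, lower calls numbered 3.

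Foxo1 did not pass the test. It held 204, 167 and 250 CPM in control and 190, 199 and 168 CPM in KO libraries. The control libraries enclosed all KO libraries, since control replicates 2 and 3 were the lowest and highest of the 6. The log2 change was −0.15 (SE 0.158, 95% interval −0.51 to 0.21, adjusted p = 0.451), and its sign changed to 0.07 in the libraries numbered 1 and 2 alone. Foxo3, a relative with overlapping functions, held 61.1 to 90.9 CPM in control and 59.1 to 78.1 CPM in KO (−0.10, 95% interval −0.50 to 0.30, adjusted p = 0.662). Its sign turned without control replicate 3, to 0.04.

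Regulators and targets of FOXO proteins, listed without regard to direction, gave 6 higher and 2 lower of 14 tested, with a median log2 change of 0.31. Bcl2l11, which encodes the death-promoting protein BIM, rose most, from 11.4, 9.97 and 24.4 CPM to 49.3, 84.9 and 72.3 CPM, by 2.17 on the log2 scale (SE 0.347; adjusted p = 0.00158). Gadd45a, a growth arrest gene, rose as well (1.55, adjusted p = 0.000932), although 15.6% of its stretches occur in other transcripts, mainly E230016M11Rik. Pdk1, which under this symbol is pyruvate dehydrogenase kinase 1 and not the kinase upstream of AKT, fell from 158 to 197 CPM in control to 40.7 to 49.7 CPM in KO (−1.98, SE 0.131, adjusted p = 5.8e-05). It is counted among the 2 lower genes and in the median, although it is not that kinase. Cdkn1b, a cell cycle inhibitor and FOXO target, was not called (−0.35, adjusted p = 0.0948), but was with the replicate block (adjusted p = 0.0469) and without control replicate 1 (−0.50, adjusted p = 0.0445). Pik3ip1, an inhibitor of PI3 kinase, held 8.69 to 20.98 CPM in control and 10.1 to 16.1 CPM in KO (−0.04, adjusted p = 0.938), with a sign that changed between settings, such as 0.46 without control replicate 3.

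Klf2 had the largest fold change of the 9 genes and the lowest level. It encodes a zinc finger protein that keeps T cells quiescent and in circulation. Control libraries had 7, 25 and 34 counts, KO libraries 74, 94 and 116, or 0.426, 0.516 and 0.808 CPM against 2.81, 2.51 and 5.90 CPM. The lowest KO library was above the highest control library, and replicate 3 was the highest in each group. The mean was 6.41 times higher in KO, 3.74 ± 1.88 against 0.583 ± 0.200 CPM (SD, n = 3). This was a log2 change of 2.62 with an SE of 0.451 (adjusted p = 0.00213), and 96.6% of tested genes changed by no more than this on the log2 scale. It was called in all 15 alternatives, from 2.15 without KO replicate 3 to 2.86 without control replicate 3. Even so, Klf2 stayed at 2.02 ± 1.02 CPM per kilobase in KO, the 35.4th percentile of tested genes, up from the 13.5th in control.

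The stretches before the most upstream start sites of Klf2 and Satb1, the genes with the largest rise and the largest fall of the 9, are shown. Both are RefSeq sequences of assembly GRCm38.p6, which corresponds to the mm10 build of the submitters' processing notes, from the most upstream start in the table and ending before the gene's first annotated exon. Klf2 lies at chr8:72318812-72319032 on the plus strand and Satb1 at chr17:51833291-51833540 on the minus strand. Capitals mark matches on either strand to CCNCNCCC, a KLF-type GC-rich motif, and to the motif of MEF2 factors, known regulators of Klf2, searched as CTA and TAG with any 4 bases between them.

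Klf2: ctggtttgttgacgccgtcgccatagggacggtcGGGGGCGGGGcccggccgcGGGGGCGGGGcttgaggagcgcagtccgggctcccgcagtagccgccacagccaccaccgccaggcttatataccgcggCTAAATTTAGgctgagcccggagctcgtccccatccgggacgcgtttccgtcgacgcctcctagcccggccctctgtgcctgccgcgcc
Satb1: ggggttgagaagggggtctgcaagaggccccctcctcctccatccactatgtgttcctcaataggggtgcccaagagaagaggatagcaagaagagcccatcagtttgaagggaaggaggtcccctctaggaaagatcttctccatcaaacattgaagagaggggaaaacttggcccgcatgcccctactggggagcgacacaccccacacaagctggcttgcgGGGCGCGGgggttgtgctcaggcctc

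The Klf2 stretch of 221 bases has a GC content of 71.5%, 1 MEF2-type match and 4 overlapping KLF-type matches in 2 blocks. The Satb1 stretch of 250 bases has a GC content of 58%, 1 KLF-type match and no MEF2-type match. Windows at other Satb1 starts had GC contents from 50.8% to 80.8% and 1 to 7 KLF-type matches. The window at chr17:51832648-51832897 held the highest of both, above the Klf2 stretch. The difference therefore applies to the printed stretches only. Among all 32851 windows of 250 bases before a start site in the table, 45.9% hold the KLF-type motif and 3.2% the MEF2-type motif. Among the 13203 windows of tested genes the shares were 61.8% and 2.79%. The table held 7 of the 9 genes, without Ccr7 and S1pr1. In none of their windows was there a match to the FOXO motif TGTTTAC, the TCF and LEF motif CTTTGAT or the BACH and AP-1 motif TGANTCA, which 3.17%, 3.21% and 6.75% of all windows and 2.23%, 2.23% and 4.61% of those of tested genes hold. The motifs were chosen after the fold changes were known, and a match is a description of letters only.

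Other members of the KLF family were not uniform: 4 of 9 tested were higher and 1 was lower, with a median log2 change of −0.06. This median is close to 0 and its sign changed, to 0.03 when libraries were scaled by size alone, 0.05 without KO replicate 1 and 0.24 without control replicate 3. Klf3, a repressor often expressed with Klf2, rose from 4.19, 2.48 and 4.70 CPM to 19.9, 33.8 and 38.5 CPM, by 3.03 on the log2 scale (SE 0.317; adjusted p = 0.000276). Klf4, which like KLF2 restrains T cell proliferation, rose from 2.29 to 3.66 CPM in control to 21.8 to 39.6 CPM in KO (3.28, SE 0.277, adjusted p = 0.000132). Klf11 fell (−1.16, SE 0.226, adjusted p = 0.00361). Higher calls numbered 2 without KO replicate 2, and lower calls 2 without control replicate 3.

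Ccr7, the receptor for the lymph node chemokines CCL19 and CCL21, was the most highly expressed of the 9 genes per kilobase of exon in both groups. It held 291, 341 and 342 CPM in control and 193, 232 and 268 CPM in KO libraries. The groups did not overlap, but KO replicate 3 came close to control replicate 1, the lowest of its group. The mean fell from 325 ± 29.2 to 231 ± 37.6 CPM (SD, n = 3). The log2 change was −0.49 with an SE of 0.147 (adjusted p = 0.0233), so 71.1% of the control level remained. The call was lost without control replicate 2 (−0.47, adjusted p = 0.0557), KO replicate 1 (−0.38, adjusted p = 0.0740) or KO replicate 2 (−0.49, adjusted p = 0.0769).

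S1pr1 went the other way. It encodes the receptor for sphingosine 1-phosphate that carries lymphocytes out of lymph nodes and is a known target of KLF2. It held 29.0, 26.2 and 49.5 CPM in control and 51.1, 60.1 and 62.7 CPM in KO libraries. Control replicate 3 stood apart from the other controls and just below KO replicate 1. The mean rose from 34.9 ± 12.7 to 58.0 ± 6.11 CPM (SD, n = 3). This was a log2 change of 0.73 with an SE of 0.231 (adjusted p = 0.0294). The call was lost without control replicate 1 (0.56, adjusted p = 0.110), control replicate 2 (0.54, adjusted p = 0.0988), KO replicate 2 (0.71, adjusted p = 0.0860) or KO replicate 3 (0.67, adjusted p = 0.0809), and the fold change was 1.02 without control replicate 3.

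The fitted rise of S1pr1 was smaller than that of Klf2. There were 68.1, 50.8 and 61.3 S1pr1 counts per Klf2 count in control and 18.2, 24.0 and 10.6 in KO. The log2 ratio fell by 1.80, from 5.85 ± 0.186 to 4.05 ± 0.595 (p = 0.1 in the same exact permutation test).

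Several genes of sphingosine 1-phosphate metabolism and of egress were higher too, 5 of the 10 tested with 1 lower. Their median log2 change was 0.37, or 0.19 without control replicate 1 and 0.20 without KO replicate 3. Higher calls numbered 4 without control replicate 1, 2 or 3 and without KO replicate 2 or 3. They also numbered 4 without a filter beyond 1 count and in the libraries numbered 1 and 2 alone, and 6 under scaling by library size alone. Sphk1, the kinase that makes sphingosine 1-phosphate, rose from 4.32, 3.47 and 2.04 CPM to 52.5, 48.5 and 73.1 CPM, by 4.18 on the log2 scale (SE 0.290; adjusted p = 6.8e-05). The receptor gene S1pr3 rose from 17.5 to 22.5 CPM in control to 52.5 to 62.0 CPM in KO (1.56, SE 0.141, adjusted p = 0.000163). Cd69, whose product binds S1PR1 and removes it from the cell surface, rose from 92.8 ± 11.1 to 129 ± 8.33 CPM, by 0.47 on the log2 scale (SE 0.122; adjusted p = 0.0128). S1pr4 held 33.2 to 36.6 and 27.2 to 39.8 CPM (0.02, adjusted p = 0.934), with a sign that changed between settings. The tetraspanin gene Cd53 fell (−1.35, SE 0.252, adjusted p = 0.0031).

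Of the 11 genes listed with CCR7 for lymph node entry, 1 was higher and 3 were lower, against 23.2% and 22.9% of all tested genes. Their median log2 change was −0.26. The median was −0.15 without KO replicate 3, −0.39 without control replicate 3 and −0.17 under scaling by library size alone. Higher calls numbered 0 without control replicate 1 or KO replicate 2, and 2 without control replicate 3 or with the replicate block. Lower calls numbered 2 under scaling by library size alone and without control replicate 2, KO replicate 1 or KO replicate 3. Dock2, which activates RAC for migration towards chemokines, fell from 319, 337 and 323 CPM to 168, 127 and 130 CPM, or −1.21 on the log2 scale (SE 0.136; adjusted p = 0.000381). Coro1a, an actin regulator of naive T cell traffic, fell by 0.43 on the log2 scale (adjusted p = 0.0296), a call lost under scaling by library size alone (−0.34, adjusted p = 0.0578) and without control replicate 2 (adjusted p = 0.0653), KO replicate 1 (0.0823), KO replicate 2 (0.0684) or KO replicate 3 (0.114). It was also lost in the libraries numbered 1 and 2 alone (adjusted p = 0.0698). Cxcr5, the follicle homing receptor, rose (0.92, adjusted p = 0.0136), a call lost without control replicate 1 (0.84, adjusted p = 0.0585) or KO replicate 2 (0.80, adjusted p = 0.0634).

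Il7r, the α chain of the receptor for the survival cytokine IL-7, was lower in KO. It held 118, 103 and 194 CPM in control and 57.3, 63.4 and 63.7 CPM in KO libraries. Control replicate 3 was the highest by far, while the KO libraries lay close together, with a coefficient of variation of 5.93% against 35.2% in control. The mean fell from 138 ± 48.7 to 61.5 ± 3.65 CPM (SD, n = 3). This was a log2 change of −1.17 with an SE of 0.218 (adjusted p = 0.00307), so 44.4% of the control level remained. It was called in all 15 alternatives, from −1.36 without control replicate 2 to −0.87 in the libraries numbered 1 and 2 alone.

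Of 11 tested genes in the rest of the IL-7 receptor pathway, 3 were higher and 3 lower, against 23.2% and 22.9% of all tested genes. Their median log2 change was 0.10, or −0.05 without control replicate 1 and 0.22 without control replicate 3. Higher calls numbered 5 under scaling by library size alone, with DESeq2, with the replicate block and without control replicate 3, and lower calls numbered 1 without KO replicate 2. Il2rg, the γ chain that pairs with Il7r and with other cytokine receptors, rose from 168, 195 and 177 CPM to 261, 269 and 327 CPM, by 0.67 on the log2 scale (SE 0.1298; adjusted p = 0.00367), although 27.5% of its stretches occur in other transcripts, mainly Gm20489. Jak3, the kinase bound to that chain, held 248 to 320 CPM in control and 337 to 389 CPM in KO (0.36, adjusted p = 0.0522). It passed with the replicate block (adjusted p = 0.0160), under scaling by library size alone (0.45, adjusted p = 0.0230) and without control replicate 3 (0.42, adjusted p = 0.0322). DESeq2 (adjusted p = 0.0401), limma voom (adjusted p = 0.0422) and the libraries numbered 1 and 2 alone (adjusted p = 0.0384) called it too. The 2 STAT5 genes pointed in opposite directions: Stat5a rose (0.50, adjusted p = 0.0213, lost without control replicate 2 at 0.0664 or KO replicate 3 at 0.0842), and Stat5b was not called (−0.34, adjusted p = 0.0626) but was with the replicate block (adjusted p = 0.0221) and without control replicate 2 (−0.42, adjusted p = 0.0449). The IL-7 gene itself, Il7, had counts in 2 KO libraries only, at 0.0380 and 0.153 CPM.

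Bcl2, the survival gene maintained by IL-7, fell from 284, 275 and 527 CPM to 152, 203 and 224 CPM in KO (−0.91, SE 0.262, adjusted p = 0.0204). Control replicate 3 was again the highest. Without it the fold change was −0.59 (adjusted p = 0.0157), and the call was lost without KO replicate 1 (−0.77, adjusted p = 0.0632) or KO replicate 2 (−0.94, adjusted p = 0.0587). Gfi1, which encodes a transcriptional repressor known to act on Il7r, fell as well, from 27.1 to 49.4 CPM in control to 12.9 to 16.02 CPM in KO (−1.39, SE 0.219, adjusted p = 0.00151).

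**Figure D2:**
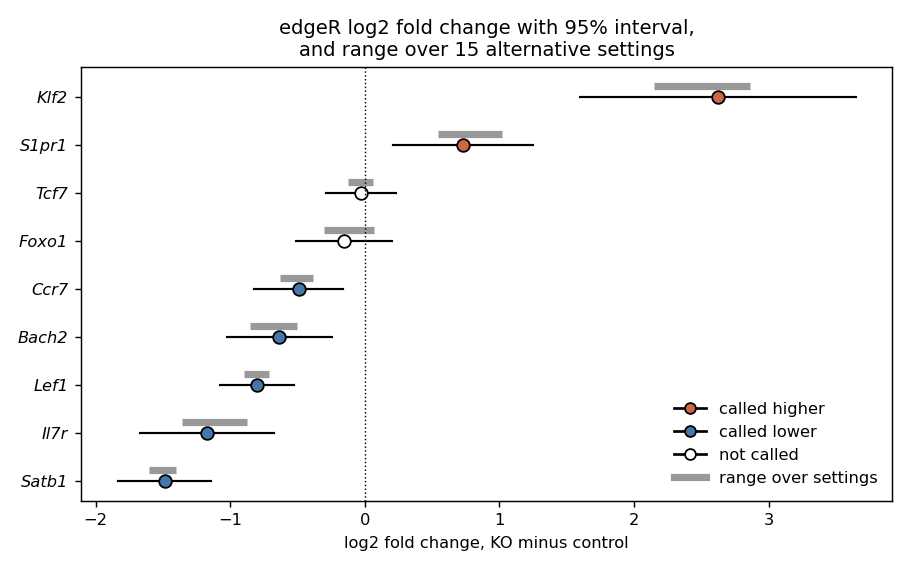
Log2 fold change of KO minus control for the 9 genes, with the 95% interval of the edgeR fit as a thin line and, above it, the range over 15 alternative settings as a grey bar. Filled points passed an adjusted p of 0.05. Klf2 (2.62) and Satb1 (−1.49) mark the ends, and the intervals of Tcf7 and Foxo1 include 0.

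The levels of the 9 genes relative to each other were compared as CPM per kilobase of merged exons of the GENCODE M21 annotation, a scale that understates genes with many long annotated exons such as Satb1 (19.0 kb). In control, Ccr7 led with 164 ± 14.8, followed by Satb1 (85.6 ± 13.4) and Tcf7 (59.1 ± 3.29). Il7r (29.7 ± 10.4), Lef1 (29.4 ± 2.27), Bach2 (26.5 ± 2.02) and Foxo1 (23.9 ± 4.81) came next, and the library ranges of neighbours among these 4 overlapped. S1pr1 (11.5 ± 4.17) and Klf2 (0.316 ± 0.108) were last. In KO, Ccr7 (117 ± 19.0) was still first and Klf2 last. Tcf7 (57.9 ± 5.73) stood above Satb1 (30.5 ± 2.74). Foxo1 (21.5 ± 1.84) and S1pr1 (19.0 ± 2.004) now preceded Bach2 (17.0 ± 4.14), Lef1 (16.9 ± 1.71) and Il7r (13.2 ± 0.782). From Foxo1 to Lef1 the ranges of neighbours overlapped, whereas all KO libraries of Il7r lay below those of Lef1.

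**Figure D3:**
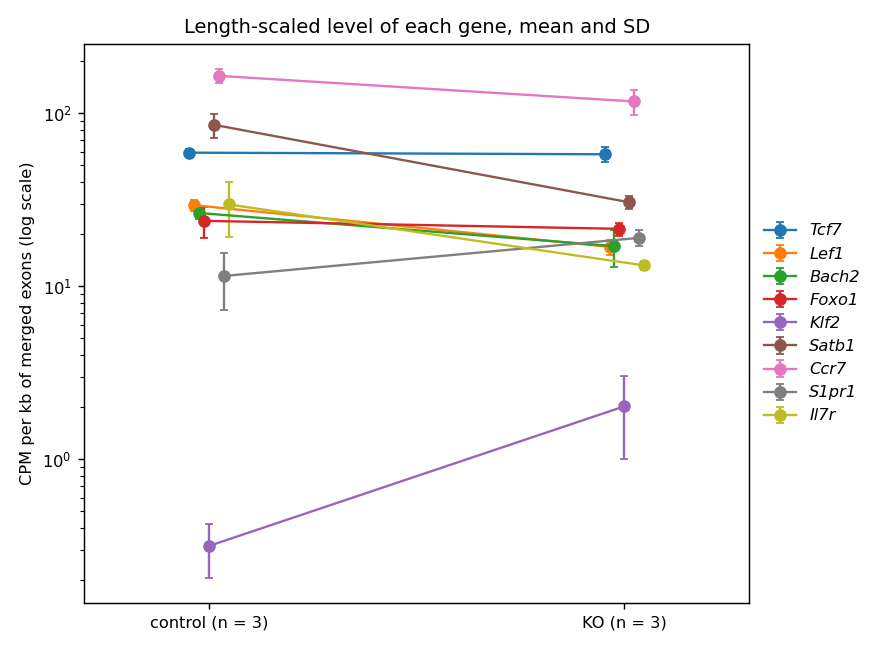
Level of each gene in CPM per kilobase of merged exons, on a log axis, as the mean and SD of 3 control and 3 KO libraries. The lines of Tcf7 and Satb1 cross, S1pr1 rises from 11.5 to 19.0, and Klf2 rises from 0.316 to 2.02 but stays the lowest.

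Beyond the 9 genes, 18 further genes of naive and stem-like T cells were listed, and 4 were higher and 6 lower. Shares over all tested genes were 23.2% and 22.9%. The median log2 change of the 18 genes was −0.14. The median was −0.34 without control replicate 1, −0.21 without control replicate 3, −0.21 without KO replicate 3 and −0.05 under scaling by library size alone. The calls were 6 higher and 7 lower with the replicate block, and lower calls numbered 4 without KO replicate 1 or KO replicate 2. Bcl6, the factor of follicular helper and memory precursor cells, rose from 8.39, 9.04 and 7.27 CPM to 36.5, 48.4 and 41.7 CPM, by 2.36 on the log2 scale (SE 0.163; adjusted p = 6.8e-05). Foxp1, a factor needed for T cell quiescence, rose from 84.7 ± 15.3 to 168 ± 8.37 CPM, by 0.99 on the log2 scale (SE 0.146; adjusted p = 0.0011), and so did Txk, a TEC family kinase (1.96, adjusted p = 0.000143). Id3, an inhibitor of E proteins linked to memory potential, fell from 14.3, 28.0 and 17.7 CPM to 11.4, 10.1 and 11.9 CPM, or −0.85 on the log2 scale (SE 0.243; adjusted p = 0.0193). Its fold change was −0.54 without control replicate 2, and the call was lost without KO replicate 2 (−0.78, adjusted p = 0.0785).

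Genes of a general effector list, which holds no Th17 cytokine gene, were mostly higher: 9 of 12 tested rose and 1, Irf4, fell. Their median log2 change was 1.51. The list's sum was lower in KO (1511 to 1710 CPM) than in control (1742 to 1787 CPM). Irf4 made up most of it, at 1317 CPM on average in control and 818 CPM in KO. Of the 8 Th17 markers, 1 was called higher and 5 lower, with a median log2 change of −1.21. Higher genes numbered 8 to 10 when 1 library was left out. Besides Prdm1, Tbx21, the Th1 factor gene, rose by 2.74 (adjusted p = 0.00118) and Gzmb, a cytotoxic protease gene, by 2.41 (adjusted p = 0.00162). Their control levels were low, at 0.676 CPM on average for Prdm1, 3.42 for Tbx21 and 2.42 for Gzmb. Cd44, the adhesion receptor of antigen-experienced cells, rose from 178 ± 2.44 to 320 ± 35.3 CPM, by 0.85 on the log2 scale (SE 0.120; adjusted p = 0.000932). Id2, an inhibitor of E proteins that favours effector cells, rose (1.09, adjusted p = 0.000557) while Id3 fell. So Klf2, S1pr1, Bcl6 and Foxp1 of the naive and memory lists were higher in the same libraries as most effector genes, and Satb1, Lef1, Bach2, Ccr7 and Il7r were lower.

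**Figure D4:**
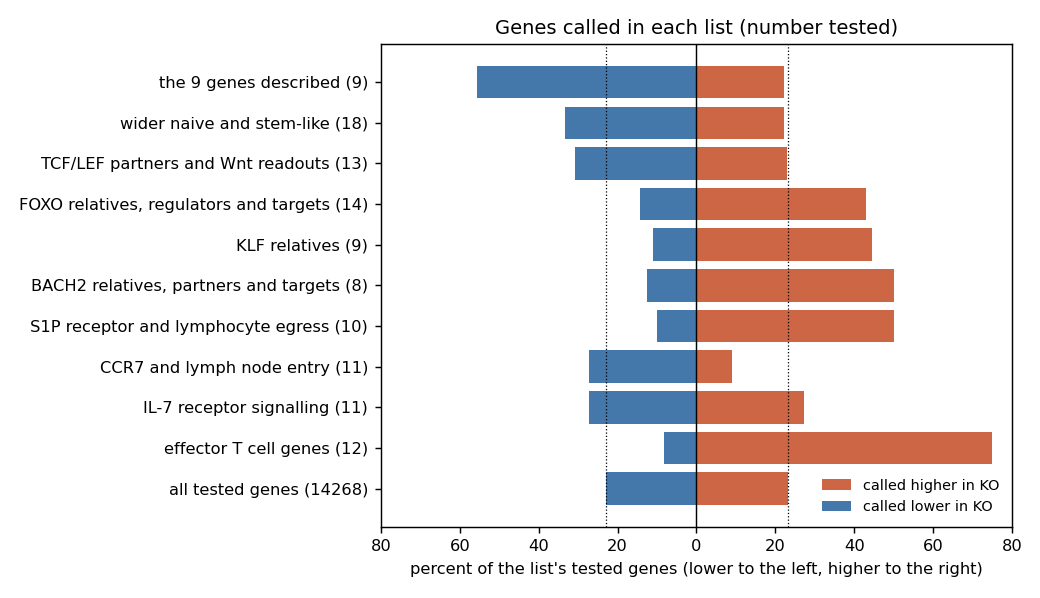
Share of tested genes called lower (left) and higher (right) in KO, for the 9 genes and for each list of pathway, naive or effector genes (marker lists are not drawn), with the number tested in brackets and the shares over all tested genes (22.9% and 23.2%) as dotted lines. Of the effector genes 9 of 12 were called higher, and of the 9 genes 5 were called lower.

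The genes differ widely in size. Klf2 (2.62 kb in the genome) and S1pr1 (4.64 kb), the shortest of the 9, were the 2 that rose. Ccr7 (10.9 kb), Il7r (24.4 kb), Satb1 (97.1 kb), Lef1 (114 kb) and Bach2 (347 kb) fell, and Tcf7 (30.6 kb) and Foxo1 (84.9 kb) were not called. Over all tested genes the median log2 change was 0.10 in those under 5 kb and −0.24 in those over 100 kb, where 14.5% were called higher and 33% lower. Lef1 and Bach2 belong to that class. In the class under 5 kb, that of Klf2 and S1pr1, 20.9% were called higher and 15.5% lower. The 9 genes are too few to show a relation with length, and none was tested.

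**Figure D5:**
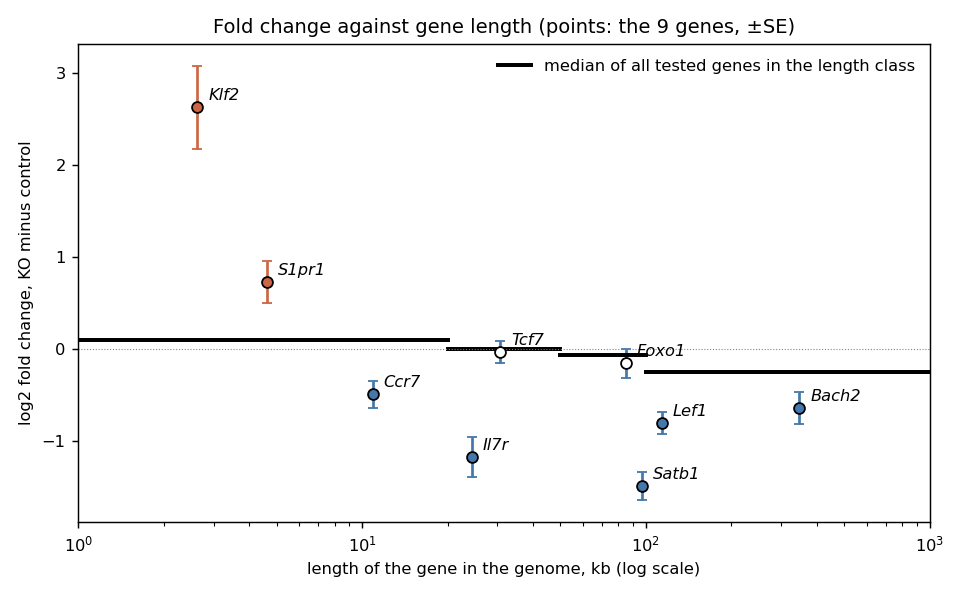
Log2 fold change (±SE) of the 9 genes against the length of the gene in the genome, on a log axis, with the median of all tested genes of each length class as thick lines. Open points were not called. Klf2 and S1pr1 lie at the short end above 0, while Satb1, Lef1 and Bach2 lie at the long end below it.

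The nearest tested protein-coding genes on either side were read as well. Among the 10 neighbours of the 5 genes that fell, 2 fell, 3 rose and 5 were not called. Over all tested genes 22.9% fell and 23.2% rose, and whether neighbours differ from these shares was not tested. None of the 4 neighbours of Klf2 and S1pr1 was called. The neighbours that fell beside a falling gene were Hadh, 9.06 kb from Lef1 (−1.53, adjusted p = 0.000208), and Tbc1d5, 557 kb from Satb1 (−0.74, adjusted p = 0.00309). Vdac1, 77.85 kb from Tcf7, fell from 490 to 213 CPM (adjusted p = 0.000489) while Tcf7 did not pass the test.

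In genome build GRCm38, with the GENCODE M21 annotation, Tcf7 lies at chr11:52252371-52283014, Lef1 at chr3:131110471-131224356, Bach2 at chr4:32238804-32586108, Foxo1 at chr3:52268336-52353221, Klf2 at chr8:72319033-72321656, Satb1 at chr17:51736187-51833290, Ccr7 at chr11:99144196-99155077, S1pr1 at chr3:115710433-115715072 and Il7r at chr15:9505788-9530176. No exon of Tcf7, Klf2, Ccr7, S1pr1 or Il7r overlaps an exon of another gene. Among 50-base stretches of their transcripts, none of Tcf7, Klf2, Ccr7 or S1pr1 and under 1% of Il7r and Satb1 occurs in another gene. The shares were 5.19% for Bach2, 6.8% for Foxo1 and 13.7% for Lef1, mainly with their antisense genes.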

How the data were processed

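Th17 cell RNA was measured in 3 control and 3 KO libraries, grouped by sample title. Per the submitters' processing notes the tools were STAR, featureCounts and DESeq2 with build mm10; versions, annotation and strand setting are not given in the sources used here. The table the authors deposited holds whole-number counts per gene symbol. Columns that match no sample numbered 0, as did unnamed lines. KO was compared with control by edgeR 4.0.16's quasi-likelihood test in R 4.3.3 (TMM factors, filterByExpr, no covariate), with Benjamini-Hochberg adjustment over 14268 tested genes. The standard error is the absolute log2 fold change over the square root of F. The spread between libraries (biological coefficient of variation 0.212) sets the precision.

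Alternatives were 3 other scalings, 2 other filters, DESeq2 1.42.0, limma 3.58.1 voom, the replicate block, each library left out, and the libraries numbered 1 and 2 alone. Deviations of same-numbered libraries correlated across genes at 0.335, 0.125 and 0.428. For differently numbered libraries the values ran from −0.459 to 0.278. The highest, control 2 with KO 1, was above the value of the libraries numbered 2. The replicate block reads the numbers as pairs, whereas the main fit and its p-values do not. What a number stands for is not labelled. The fit was tested on simulated data. The members, lists and motifs were chosen with earlier results of these data known. Named besides the 9 genes are Rtf1, 19 genes fixed by name, of which 1 is not reported here, and, per list, up to 3 called genes with the largest change, a mean of at least 5 CPM and no overlap between groups; Irf4, Hmox1, Il7, markers, antisense genes and neighbouring genes were named outside this rule.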

Additional observations from a re-analysis of the deposited data

How the results depend on the processing

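Over 15 alternatives, the number of the 9 genes called was 7 in the fit with the replicate block, and leaving out 1 library gave 4 to 7; genes called lower numbered 3 to 5 and genes called higher 1 to 2. The lowest values came without KO replicate 2. Lef1, Klf2, Satb1 and Il7r were called in all 15, while Bach2, Ccr7 and S1pr1 lost their call only in fits with 1 library left out. Signs that changed were those of Tcf7 (0.059 with library size only, 0.0023 without control replicate 2 and 0.018 without KO replicate 3; −0.12 to 0.018 with 1 library left out) and Foxo1 (0.071 in the libraries numbered 1 and 2), neither of which was called in any setting; the cause was not tested. With the replicate block 7628 genes of all tested were called, against 6574, and the call of none of the 9 genes changed. Library size as the only scaling moved the median of all genes from 0.013 to 0.10. Leaving out 1 library, an alternative added after seeing the data for the ratios, left the Tcf7 to Lef1 and S1pr1 to Klf2 ratios in the same direction. The S1pr1 to Klf2 difference ran from −2.06 without KO replicate 2 to −1.47 without KO replicate 3, moves larger than the control SD of 0.186 and smaller than the KO SD of 0.595. Klf2 rests on 7 to 116 counts per library.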
